A study of Mus musculus with 2 samples.

Results

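The AMPA receptor genes of olfactory bulb nuclei are described here, that is, 10 of the 31055 rows of each count table: the pore-forming subunits *Gria1*, *Gria2*, *Gria3* and *Gria4* and the auxiliary proteins *Cacng2*, *Cacng3*, *Shisa6*, *Shisa9*, *Cnih2* and *Cnih3*. They were chosen by symbol, with their levels in these nuclei already known, so their differences between classes are given as a description and without a test. Nuclei came from olfactory bulbs of adult mice whose strain is labelled WT. A retrogradely transported virus (retroAAV-CAG-H2B-GFP), in which the general CAG promoter drives a nuclear green fluorescent protein, had been injected into the anterior olfactory nucleus (AON) for one library and into the posterior piriform cortex (pPCx) for the other. Axon endings take up such a virus, so that sorted green bulb nuclei should be rich in neurons that send axons to the injected area. The pPCx library came from 1 female mouse. The AON library is known from its labels alone, which do not give the animal's sex, its exact age or the number of animals.

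With 1 library in each group there is no replicate check. Every interval given is a 95% interval for counting error only, and the comparisons are between these nuclei, not between injection sites in general. The AON library held 188 barcodes and 2963064 UMIs (unique molecular identifiers, 1 for each counted RNA molecule), and the pPCx library held 74 barcodes and 2412067 UMIs. They shared 0 barcodes. Nuclei with at least 1000 genes were kept. A projection neuron nucleus had more UMIs of *Slc17a7*, *Slc17a6*, *Tbx21* and *Cdhr1* than of the GABA genes *Gad1*, *Gad2* and *Slc32a1*, a GABAergic nucleus had the reverse with at least 3 UMIs of the GABA genes, and the others were called remaining. This gave 25 projection neuron, 47 GABAergic and 30 remaining AON nuclei, and 59, 2 and 2 pPCx nuclei. Of the remaining AON nuclei, 18 carried astrocyte markers and 9 carried oligodendrocyte markers. Projection neuron markers that the class rule did not use (*Eomes*, *Tbr1*, *Thy1*, *Reln* and *Lhx5*) summed to 2645 CPM (UMIs per 1000000 UMIs of the class) in AON projection neurons, 2727 CPM in pPCx projection neurons and 59.8 CPM in GABAergic nuclei. The AON projection neurons are less clear-cut than the pPCx ones: 8 of 25 AON nuclei but 1 of 59 pPCx nuclei were classed by a margin of 1 or 2 UMIs, and in 4 nuclei of each library a glial marker list had more UMIs than the class markers. RNA of the reporter itself was close to absent, with 1 eGFP UMI in each of the 2 projection neuron classes. The AON projection neurons held 0 UMIs of *Xist* and 139 of the Y-linked *Eif2s3y*, and the pPCx projection neurons held 1744 and 0. Sex and injection site therefore cannot be told apart.

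AMPA receptors carry most of the fast excitatory current at brain synapses. Each receptor is a tetramer of the subunits GluA1 to GluA4, encoded by *Gria1* to *Gria4*, and its makeup sets how fast it closes and whether it passes calcium. GluA2 is the subunit that usually keeps calcium out, because its RNA is edited at the Q/R site of the pore, where a glutamine codon is read as arginine. Auxiliary proteins bind the tetramer: the TARPs (*Cacng2* encodes stargazin, *Cacng3* encodes gamma-3) and cornichons (*Cnih2* and *Cnih3*) promote surface delivery and slow the channel's closing, and the Shisa proteins (*Shisa6*, and *Shisa9*, also called CKAMP44) alter desensitization. In the bulb, mitral and tufted cells receive glutamate from olfactory sensory neurons and pass it to interneurons such as granule cells.

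The 4 subunits are near relatives, so the reading of their RNA rests on the parts that differ. The coding stretch around the Q/R site shows this. The bases shown are those of the longest annotated coding sequence of each gene (GENCODE M21, GRCm38), 5′ to 3′ on the gene's strand, with the Q/R codon in capitals.
Gria1: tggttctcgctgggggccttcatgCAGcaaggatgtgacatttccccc
Gria2: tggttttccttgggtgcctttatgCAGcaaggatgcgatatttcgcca
Gria3: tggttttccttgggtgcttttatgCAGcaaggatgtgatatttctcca
Gria4: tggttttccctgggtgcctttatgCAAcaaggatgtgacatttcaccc
They lie at chr11:57243070-57243117 on the plus strand (exon 11 of 16), chr3:80706890-80706937 on the minus strand (exon 11 of 16), chrX:41610241-41610288 on the plus strand (exon 11 of 16) and chr9:4464116-4464163 on the minus strand (exon 12 of 17). The genome carries a glutamine codon in all 4 genes. Of these 48 bases, *Gria2* shared 45 with *Gria3*, 42 with *Gria4* and 39 with *Gria1*. Over whole transcripts, between 0.282% (*Gria1*) and 0.815% (*Gria4*) of the distinct 31-base stretches of a gene occurred in another of the 4, so few reads could be divided between them. These libraries count RNA from its 3′ end and cannot show the edited base.

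The genes differ in length, which bears on any order of subunits within a class. *Gria2* has 15.548 kb of exonic sequence, *Gria3* has 9.859 kb, *Gria4* has 6.305 kb and *Gria1* has 6.043 kb in GENCODE M21. *Gria4* spans 378 kb of chromosome 9, *Gria1* spans 319 kb of chromosome 11, *Gria3* spans 278 kb of the X chromosome and *Gria2* spans 121 kb of chromosome 3. Whether intronic reads were counted is not given in the sources used here. Shares of subunits are therefore given both as shares of UMIs and as shares after each gene's UMIs were divided by its exonic length, and a 3′ count need not follow either.

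The subunit makeup differed between the projection neurons of the 2 libraries. *Gria4*, which encodes a fast-closing subunit, supplied 59.5% of the 3164 *Gria1* to *Gria4* UMIs of AON projection neurons (57.7 to 61.2) and 7.98% of the 4872 of pPCx projection neurons (7.24 to 8.78). *Gria2* went the other way, with 26.0% in the AON class (24.5 to 27.5) and 78.4% in the pPCx class (77.2 to 79.5). The share of *Gria1* was 14.1% and 13.2%, and that of *Gria3* was 0.442% and 0.452%. With exonic length taken into account, *Gria4* still led in AON projection neurons (69.9%) and *Gria2* in pPCx projection neurons (59.0%). The summed level of the 4 genes was 2831 CPM in the AON class and 2092 CPM in the pPCx class.

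The leading subunit varied between single nuclei, more so in the AON class. Among nuclei with at least 20 *Gria1* to *Gria4* UMIs, *Gria4* had the most UMIs in 9 of 17 AON projection neurons, *Gria2* in 7 and *Gria1* in 1. The 7 include 1 nucleus in which *Gria2* and *Gria4* tied at 51 UMIs. They also include the nuclei of 3479 and 2708 CPM of *Gria2*, which each had 1 UMI of the projection neuron class markers. In pPCx projection neurons *Gria2* led in 51 of 55 nuclei, *Gria1* in 4 and *Gria4* in 0. The *Gria4* share of a nucleus ranged from 0% to 85.3% with a median of 54.9% in the AON class, and from 0% to 39.1% with a median of 6.32% in the pPCx class. The ranges of the 2 classes overlapped.

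Between the projection neuron classes, 8 of the 10 members had the 50 UMIs over both sums that were asked for a call. Of these, 3 were at least 2-fold higher in the AON class, where 4.98% of the 7517 genes with as many UMIs were, and 2 were at least 2-fold lower, against 6.85%, or 11.8% in either direction. The members' median log2 ratio was 0.33, and that of all genes was -0.05. The members were picked with this contrast in view, and nothing is read from these counts. The makeup of the AON class moved with other markers too: cortical glutamatergic markers summed to 623 CPM there and to 143 CPM in the pPCx class, with astrocyte markers at 207 and 204 CPM. Their part in these differences was not tested.

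*Gria4* had 1881 UMIs, or 1683 CPM, in the AON projection neurons and 389 UMIs, or 167 CPM, in the pPCx ones, a log2 ratio of 3.33 (3.17 to 3.49). Single AON nuclei ran from 0 to 6743 CPM with a median of 650 CPM, and pPCx nuclei from 0 to 861 CPM with a median of 135 CPM. Of the 25 AON nuclei, 12 lay above the highest pPCx nucleus and the others lay within the pPCx range, 5 of them with 0 UMIs. Those 5 had only 1 or 2 UMIs of the projection neuron class markers. Among the 12, the nuclei at 1389 and 1475 CPM held 9 and 8 UMIs of *Gria4* and 1 and 3 UMIs of these markers. *Gria2* had 736 CPM in the AON class and 1640 CPM in the pPCx class, a log2 ratio of -1.16 (-1.27 to -1.05). All 59 pPCx nuclei carried *Gria2*, from 497 to 4524 CPM, and 21 of 25 AON nuclei did, from 0 to 3479 CPM. The AON nucleus at 3479 CPM had 1 UMI of the projection neuron class markers.

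*Gria1*, the subunit best known for its activity-driven delivery to synapses, was not past 2-fold between the libraries (400 and 276 CPM, log2 ratio 0.54, 0.36 to 0.71). The class sums hide an uneven spread. Of the AON UMIs of *Gria1*, 48.8% came from the deepest nucleus, and 14 of 25 AON nuclei had none. *Gria3* was close to absent from both projection neuron classes, with 14 UMIs in the AON class and 22 in the pPCx class. The AON count rests on a doubtful nucleus, since 7 of the 14 UMIs came from 1 nucleus that had 1 UMI of the projection neuron class markers. Without the nuclei whose glial markers exceeded their class markers, the *Gria3* ratio turned from 0.43 to -0.99.

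Of the auxiliary genes, *Cnih3* was higher in the AON class (45.6 against 12.03 CPM, log2 ratio 1.91, 1.23 to 2.64), although the ratio was -0.14 after every nucleus was thinned to 3000 UMIs. *Cacng3* was lower (11.6 against 46.8 CPM, log2 ratio -1.96, -2.96 to -1.17). The other TARP behaved differently, as *Cacng2* stood at 83.2 and 93.6 CPM, a ratio of -0.17 (-0.54 to 0.19). *Shisa9* stood at 506 and 464 CPM, a ratio of 0.12 (-0.03 to 0.27). *Shisa6* was higher in the AON class (233 against 97.1 CPM, log2 ratio 1.26, 1.00 to 1.52), but a single pPCx nucleus held 80.1% of that class's UMIs, and without it the ratio was 3.55. *Cnih2* gave 8 and 10 UMIs, too few for a call.

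**Figure D1:**
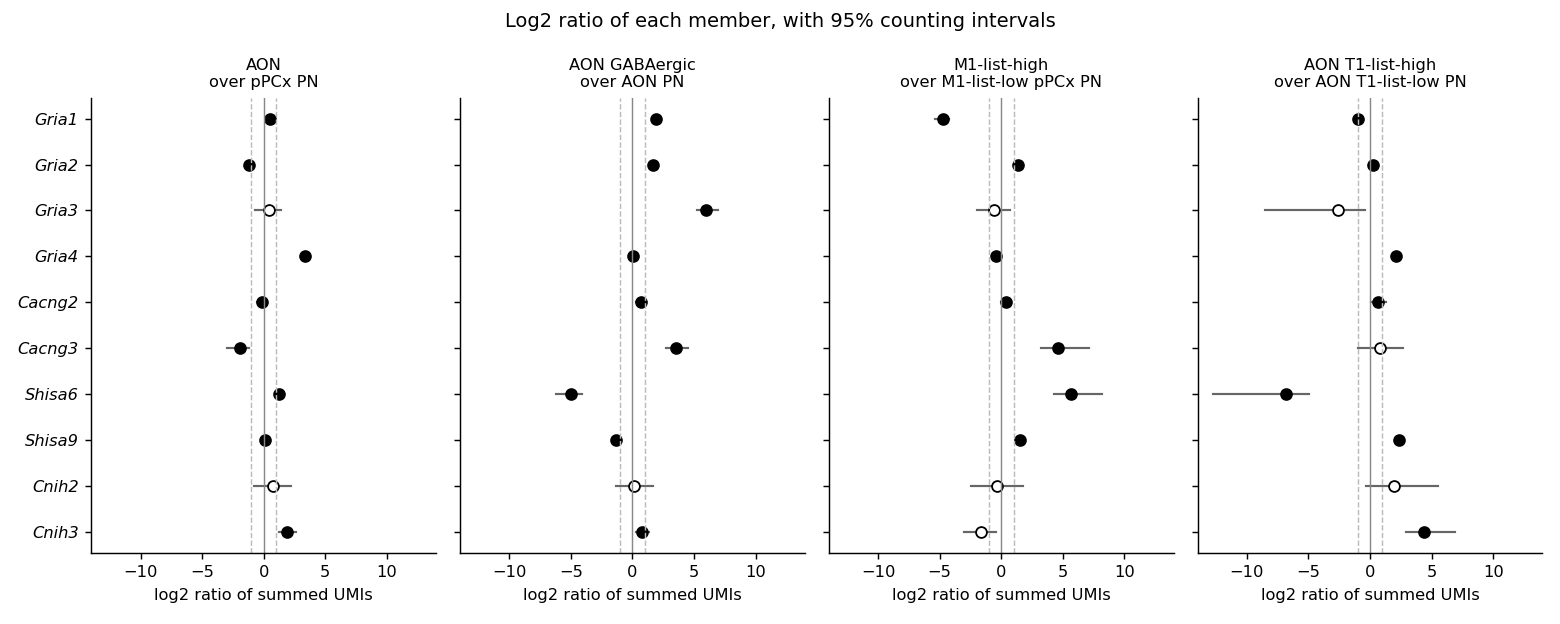
Log2 ratio of the summed UMIs of each member (0.5 UMI added to each sum) in 4 comparisons, with 95% counting intervals as grey lines. Dashed lines mark 2-fold, filled points have at least 50 UMIs over both sums and open points fewer, and PN means projection neurons. Gria4 stood at 3.33 for AON over pPCx projection neurons, and Gria1 at -4.73 for M1-list-high over M1-list-low pPCx projection neurons.

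The pPCx projection neurons split into 2 groups by a list of 14 mitral cell genes that the study assigns to a type called M1 and that holds no member. The summed M1 list was at 1000 CPM or more in 37 nuclei and below it in 22. The lowest value above the limit was 2534 CPM and the highest below it was 971 CPM. Both groups come from 1 library, and they summed to 1303538 UMIs (M1-list-high) and 1024802 UMIs (M1-list-low). Nuclei are not replicates, and no test is given. A list of 11 genes that the study assigns to another mitral type, M2, ran the other way, with 651 CPM in the M1-list-high group (45.5 to 1638 in single nuclei) and 4015 CPM in the M1-list-low group (703 to 6954). The groups are defined by the level of a list, and no nucleus is assigned to a type here.

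*Gria1* separated the groups most clearly among the pore subunits. In M1-list-low nuclei it was present in 22 of 22, from 50.7 to 1354 CPM with a median of 285 CPM. In M1-list-high nuclei it was present in 11 of 37, from 0 to 162 CPM with a median of 0 CPM. The sums were 599 and 22.2 CPM, so that *Gria1* was 26.9-fold lower in the M1-list-high group (log2 ratio -4.73, -5.34 to -4.21). The groups overlapped between 50.7 and 162 CPM. *Gria2* was higher in the M1-list-high group (2234 against 884 CPM, log2 ratio 1.34, 1.23 to 1.45), and it was detected in every nucleus of both groups. Single nuclei overlapped here too, from 915 to 4524 CPM in the M1-list-high group and from 497 to 2150 CPM in the M1-list-low group.

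The subunit makeup differed accordingly. In M1-list-high nuclei *Gria2* supplied 92.7% of the *Gria1* to *Gria4* UMIs (91.7 to 93.6) and led in 36 of the 36 nuclei with at least 20 such UMIs, with a lowest share of 78.4% in any of them. In M1-list-low nuclei *Gria2* supplied 52.3% and *Gria1* 35.5% (33.2 to 37.8). Dividing by exonic length left *Gria2* ahead in the first group (83.9%) and placed *Gria1* first in the second (52.7%, with *Gria2* at 30.2%). *Gria4* differed less, with 146 CPM and 194 CPM (log2 ratio -0.41, -0.71 to -0.12), and so did *Gria3* with 10 and 12 UMIs in all.

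Of the 7 members with enough UMIs, 4 were at least 2-fold higher in M1-list-high nuclei and 1 was lower, where 7.17% and 4.81% of 6052 genes were (12% in either direction). The members' median log2 ratio was 1.34 and that of all genes was 0.08. *Cacng3*, the gamma-3 TARP, came mostly from the high group, with 106 UMIs in 26 of 37 nuclei against 3 UMIs in 3 of 22 (81.3 and 2.93 CPM, log2 ratio 4.58, 3.21 to 7.10). Its relative *Cacng2* was spread over both, at 104 and 80.0 CPM (log2 ratio 0.38, -0.02 to 0.80). *Shisa9* was present in 37 of 37 and 21 of 22 nuclei and was higher in the M1-list-high group (654 against 222 CPM, log2 ratio 1.55, 1.34 to 1.77). *Shisa6* was also higher (223 against 3 UMIs, log2 ratio 5.65, 4.30 to 8.16), but 81.2% of its UMIs lay in 1 nucleus of 4247 CPM, whose M1 list of 2534 CPM was the lowest above the limit. In the other 36 nuclei *Shisa6* reached at most 350 CPM and summed to 33.3 CPM, and without that nucleus the ratio was 3.30. Astrocyte markers summed to 295 CPM in the M1-list-high group and 88.8 CPM in the M1-list-low group. *Cacng3* had 3 UMIs, *Gria2* stood at 2902 CPM and *Gria1* at 1161 CPM in astrocyte-marker nuclei of the AON library, and the part of astrocyte RNA in these differences was not tested.

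**Figure D2:**
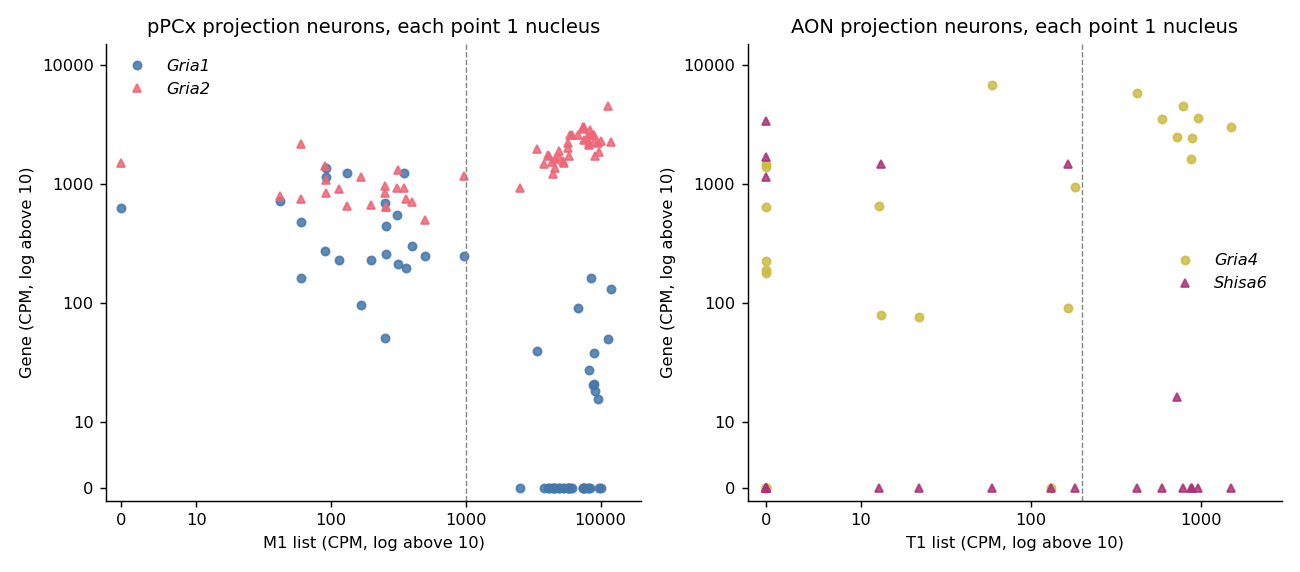
Gria1 and Gria2 against the summed M1 list in 59 pPCx projection neuron nuclei (left), and Gria4 and Shisa6 against the summed T1 list in 25 AON projection neuron nuclei (right), each point 1 nucleus, all axes in CPM and logarithmic above 10. Dashed lines mark the limits of 1000 and 200 CPM. Gria1 was present in 22 of 22 nuclei left of the M1 limit and in 11 of 37 right of it, and Gria4 was at 1621 CPM or more in all 8 nuclei right of the T1 limit.

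The AON projection neurons were divided in the same way with 9 genes that the study assigns to a tufted cell type called T1, at a limit of 200 CPM chosen after the values were seen. The list reached 420 CPM or more in 8 nuclei and at most 181 CPM in the other 17. The 8 T1-list-high nuclei were deeper in the median (56522 UMIs, lowest 37510) than the 17 others (10664, lowest 3291). The deepest AON projection neuron, at 274993 UMIs, was nevertheless among the 17 and held 41.1% of their UMIs. The 8 nuclei were cleaner, with astrocyte markers at 40.2 CPM against 318 CPM. Depth and marker content therefore move with this division, and their part was not tested.

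All 8 T1-list-high nuclei had *Gria4* as their leading subunit. Their *Gria4* level ran from 1621 to 5770 CPM, and in order of a rising T1 list the nuclei held 220, 204, 156, 249, 136, 150, 133 and 152 UMIs of *Gria4*. *Gria4* supplied 74.6% of their *Gria1* to *Gria4* UMIs (72.6 to 76.6), with *Gria2* at 19.2%, *Gria1* at 6.08% and 1 UMI of *Gria3* in all. In the other 17 nuclei *Gria4* summed to 718 CPM, and a single nucleus with 342 UMIs of *Gria4* (6743 CPM) and a T1 list of 59.1 CPM held 71.1% of it. The 16 nuclei left had 225 CPM of *Gria4*, from 0 to 1475 CPM. The log2 ratio between the groups was 2.12 (1.97 to 2.27), 3.80 without that nucleus and 1.42 without the nuclei deeper than 3 times the median of their class.

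In T1-list-high nuclei 3 of 7 members were at least 2-fold higher and 1 was lower, where 7.36% and 8.07% of 3422 genes were (15.4% in either direction). The members' median log2 ratio was 0.67 and that of all genes was 0.03. *Shisa9* was present in 8 of 8 nuclei, from 432 to 1573 CPM, and summed to 981 CPM against 188 CPM (log2 ratio 2.38, 2.09 to 2.68). The deepest nucleus of the low group held 41.1% of that group's UMIs but only 2 of its 126 UMIs of *Shisa9*. *Cnih3* had 48 UMIs in 6 of 8 nuclei against 3 UMIs in 3 of 17 (log2 ratio 4.37, 2.95 to 6.91). *Shisa6* was lower, with 1 UMI against 259 (log2 ratio -6.85, -12.74 to -4.94). *Gria2* differed less between the groups (806 and 688 CPM, log2 ratio 0.23, 0.03 to 0.43). *Gria1* was at 255 and 497 CPM, but 65.5% of its UMIs in the low group came from the deepest nucleus and 66.7% of those in the high group from another.

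*Shisa6* was carried by a small set of AON nuclei outside the T1-list-high group. Of the 25 AON projection neurons, 5 had at least 3 *Shisa6* UMIs, with 113, 81, 45, 11 and 9 UMIs, or 1140 to 3342 CPM. The 3 deepest of these had 76634, 54982 and 39459 UMIs in all, and in them *Gria2* supplied 85.7%, 83.3% and 81.6% of the *Gria1* to *Gria4* UMIs. The same 3 nuclei held 6, 5 and 7 UMIs of *Gria4* and 0, 1 and 0 of *Gria1*. Their M1 list stood at 1148, 728 and 735 CPM, below the values of the pPCx M1-list-high nuclei. In the pPCx nucleus with 181 *Shisa6* UMIs, 39 of 39 *Gria1* to *Gria4* UMIs were of *Gria2*. All these nuclei were picked out for their *Shisa6* level after the values were seen.

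**Figure D3:**
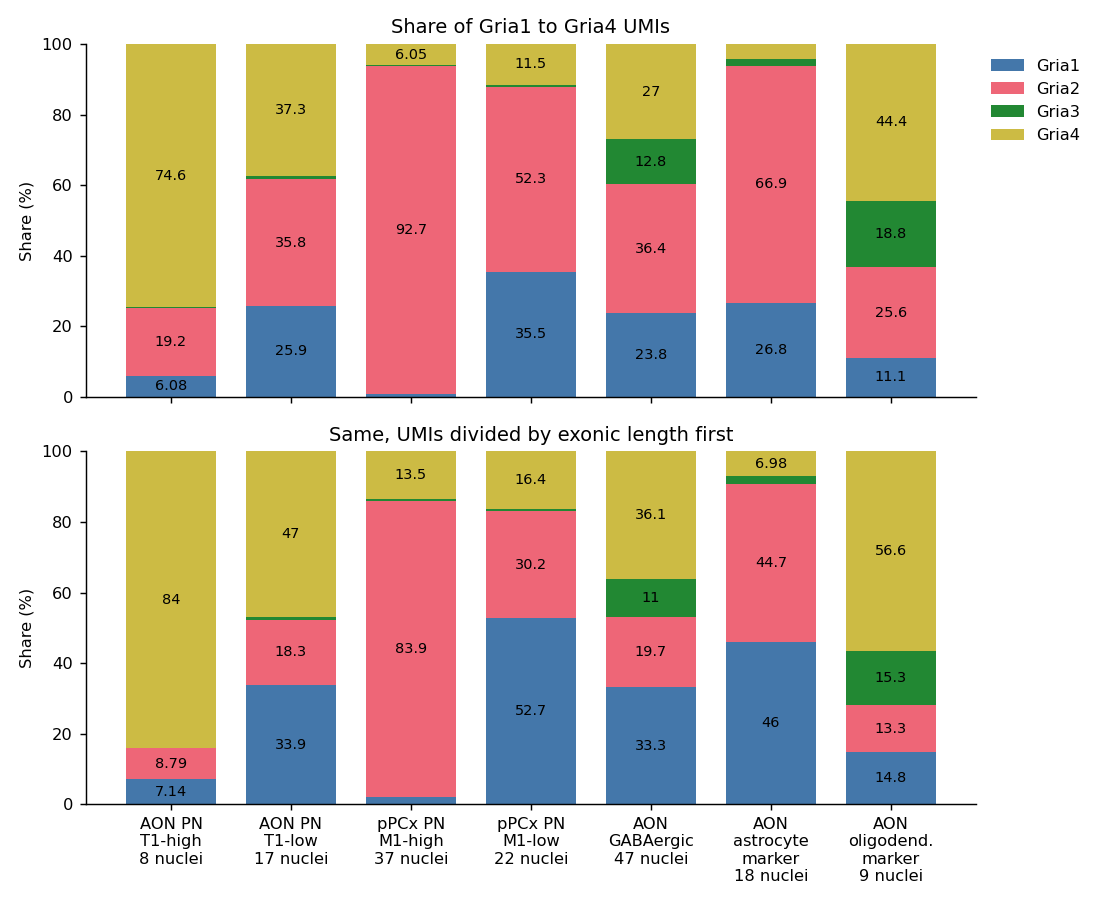
Shares of Gria1, Gria2, Gria3 and Gria4 in 7 groups of nuclei, as shares of their summed UMIs (top) and after UMIs were divided by exonic length (bottom), in percent. PN means projection neurons. Gria4 made up 74.6% in T1-list-high AON nuclei and Gria2 92.7% in M1-list-high pPCx nuclei, and Gria3 reached 12.8% in GABAergic nuclei.

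GABAergic nuclei of the AON library carried more AMPA receptor RNA than the projection neurons and used all 4 subunits. The 4 genes summed to 6381 CPM against 2831 CPM. *Gria2* supplied 36.4% of their 8112 UMIs (35.3 to 37.4), *Gria4* 27.0% (26.0 to 28.0), *Gria1* 23.8% (22.9 to 24.8) and *Gria3* 12.8% (12.1 to 13.6). Dividing by exonic length changed the order, to 36.1% for *Gria4*, 33.3% for *Gria1*, 19.7% for *Gria2* and 10.96% for *Gria3*. *Gria2* had the most UMIs in 27 of 47 nuclei, *Gria4* in 15, *Gria1* in 4 and *Gria3* in 1. Immature neuron markers summed to 454 CPM here against 97.5 CPM in the AON projection neurons, and their part was not tested.

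Of the 9 members with enough UMIs, 4 were at least 2-fold higher in GABAergic nuclei than in AON projection neurons and 2 were lower, where 15.9% and 14.4% of 6183 genes were (30.3% in either direction). The members' median log2 ratio was 0.79, against 0.07 for all genes. *Gria3* differed most, with 1040 UMIs (818 CPM) in the GABAergic class and 14 UMIs (12.5 CPM) in the projection neurons, a 65.3-fold difference (38.7 to 120). It was found in 38 of 47 GABAergic nuclei, from 0 to 2260 CPM with a median of 804 CPM. After each nucleus was thinned to 3000 UMIs, *Gria3* was found in 68.6% of GABAergic nuclei, against 6.56% of AON and 2.97% of pPCx projection neurons, where it was found in 8 of 25 and 18 of 59 nuclei before thinning. *Gria1* was 3.80-fold higher (1521 against 400 CPM) and was present in 47 of 47 GABAergic nuclei, and *Gria2* was 3.15-fold higher (2321 against 736 CPM).

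In the class sums, *Gria4* was the subunit that did not follow. Its sums were 1721 CPM in GABAergic nuclei and 1683 CPM in AON projection neurons, a log2 ratio of 0.03 (-0.06 to 0.12). Its sign turned with the AON nuclei left out, to -0.36 without the nuclei deeper than 3 times the median of their class, and it was 0.25 without the T1-list-low nucleus of 342 *Gria4* UMIs. The GABAergic nuclei ran from 264 to 6126 CPM and covered the whole range of the T1-list-high projection neurons. The median nucleus was at 1518 CPM in the GABAergic class, 650.5 CPM in AON projection neurons and 135 CPM in pPCx projection neurons. *Gria4* was present in 47 of 47 GABAergic nuclei but in 20 of 25 AON projection neurons, so the near-equal sums do not hold for the median nucleus. The 5 without it had only 1 or 2 UMIs of the projection neuron class markers, and 3291 to 10664 UMIs in all. The order of the medians therefore depends on doubtful class calls.

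The auxiliary genes also divided. *Cacng3* was 11.7-fold higher in GABAergic nuclei than in AON projection neurons (136 against 11.6 CPM, 6.66 to 22.4). *Cacng2* (131 against 83.2 CPM, log2 ratio 0.66, 0.28 to 1.04) and *Cnih3* (79.5 against 45.6 CPM, log2 ratio 0.79, 0.30 to 1.32) were not past 2-fold. *Shisa6* was 32.9-fold lower (7.08 against 233 CPM), and *Shisa9* was 2.51-fold lower (201 against 506 CPM). *Shisa9* was unevenly spread among the GABAergic nuclei: 36 of 47 had 0 UMIs, and 1 nucleus held 42.2% of the total. Of the 9 GABAergic nuclei with at least 3 *Shisa9* UMIs, 7 had fewer than 3 of *Gria3*, whereas 34 of the other 38 had 3 or more of *Gria3*. This count was made after the values were seen. The 2 GABAergic pPCx nuclei had 73 UMIs of *Gria1*, 70 of *Gria2*, 17 of *Gria3* and 79 of *Gria4*.

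**Figure D4:**
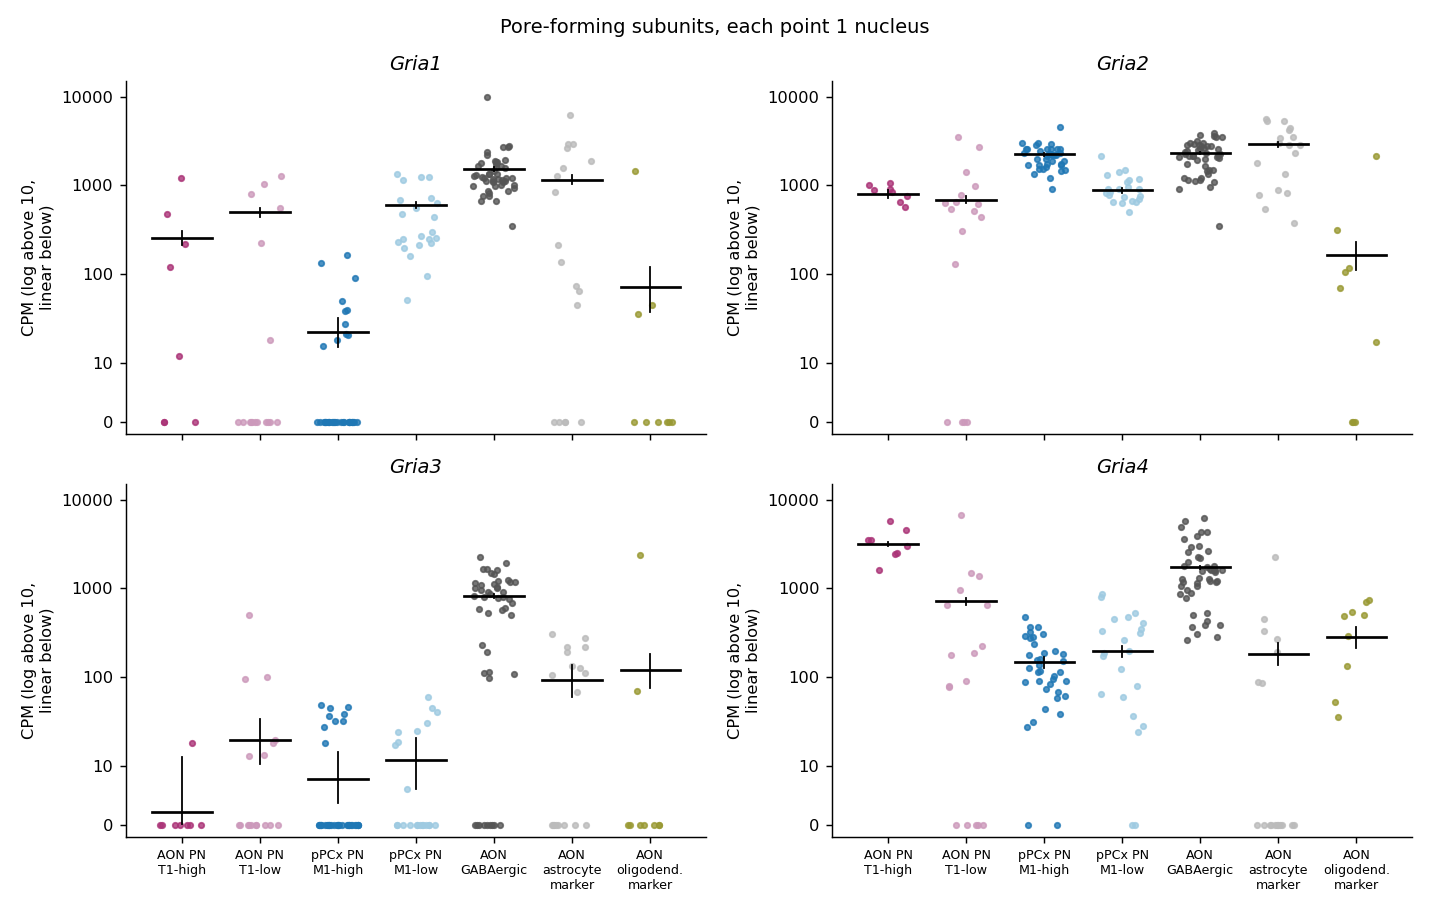
Level of each pore-forming subunit in single nuclei of 7 groups, in CPM, logarithmic above 10 and linear below. Each point is 1 nucleus, horizontal bars are the level of the summed nuclei and vertical bars its 95% counting interval, and PN means projection neurons. Gria3 was found in 38 of 47 GABAergic nuclei and summed to 2.23 to 19.4 CPM in the 4 groups of projection neurons.

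The 30 remaining AON nuclei differed again, and 3 of them met the marker rule of neither glial group. Those 3 held 83 of the 412 UMIs of *Gria1*, 49 of the 151 of *Gria4* and the only UMI of *Cacng2*. Of the 8 members with enough UMIs, 3 were at least 2-fold higher in the 30 remaining AON nuclei than in the AON projection neurons and 4 were lower, where 21.4% and 19.6% of 4945 genes were (41.1% in either direction). The members' median log2 ratio was -0.89, against 0.15 for all genes. In the 18 astrocyte-marker nuclei *Gria2* was at 2902 CPM and present in all 18, *Gria1* was at 1161 CPM and *Shisa9* at 830 CPM, and *Gria4* was at 184 CPM with 25 of its 50 UMIs in 1 nucleus. Their *Gria2* share was 66.9% of UMIs and 44.7% after division by exonic length, when *Gria1* was at 46.0%. *Cacng2* and *Cnih3* had 0 UMIs in them. In the 9 oligodendrocyte-marker nuclei *Gria4* was the one subunit present in every nucleus, from 35.1 to 733 CPM, although its sum was only 52 UMIs (282 CPM). *Gria2* had 30 UMIs there, of which 53.3% came from 1 nucleus, and *Shisa9* had 0.

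*Cnih3* was at 0 UMIs in all 30 remaining nuclei and 51 UMIs in the AON projection neurons. With the 0 set at a floor of 3 UMIs it was 7.30-fold lower, and the 95% counting interval of the ratio begins at 5.72-fold. *Cacng2* had 1 UMI against 93 (log2 ratio -4.74, -10.64 to -2.81). *Gria4* was at 315 CPM against 1683 CPM (log2 ratio -2.41, -2.67 to -2.18).

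**Figure D5:**
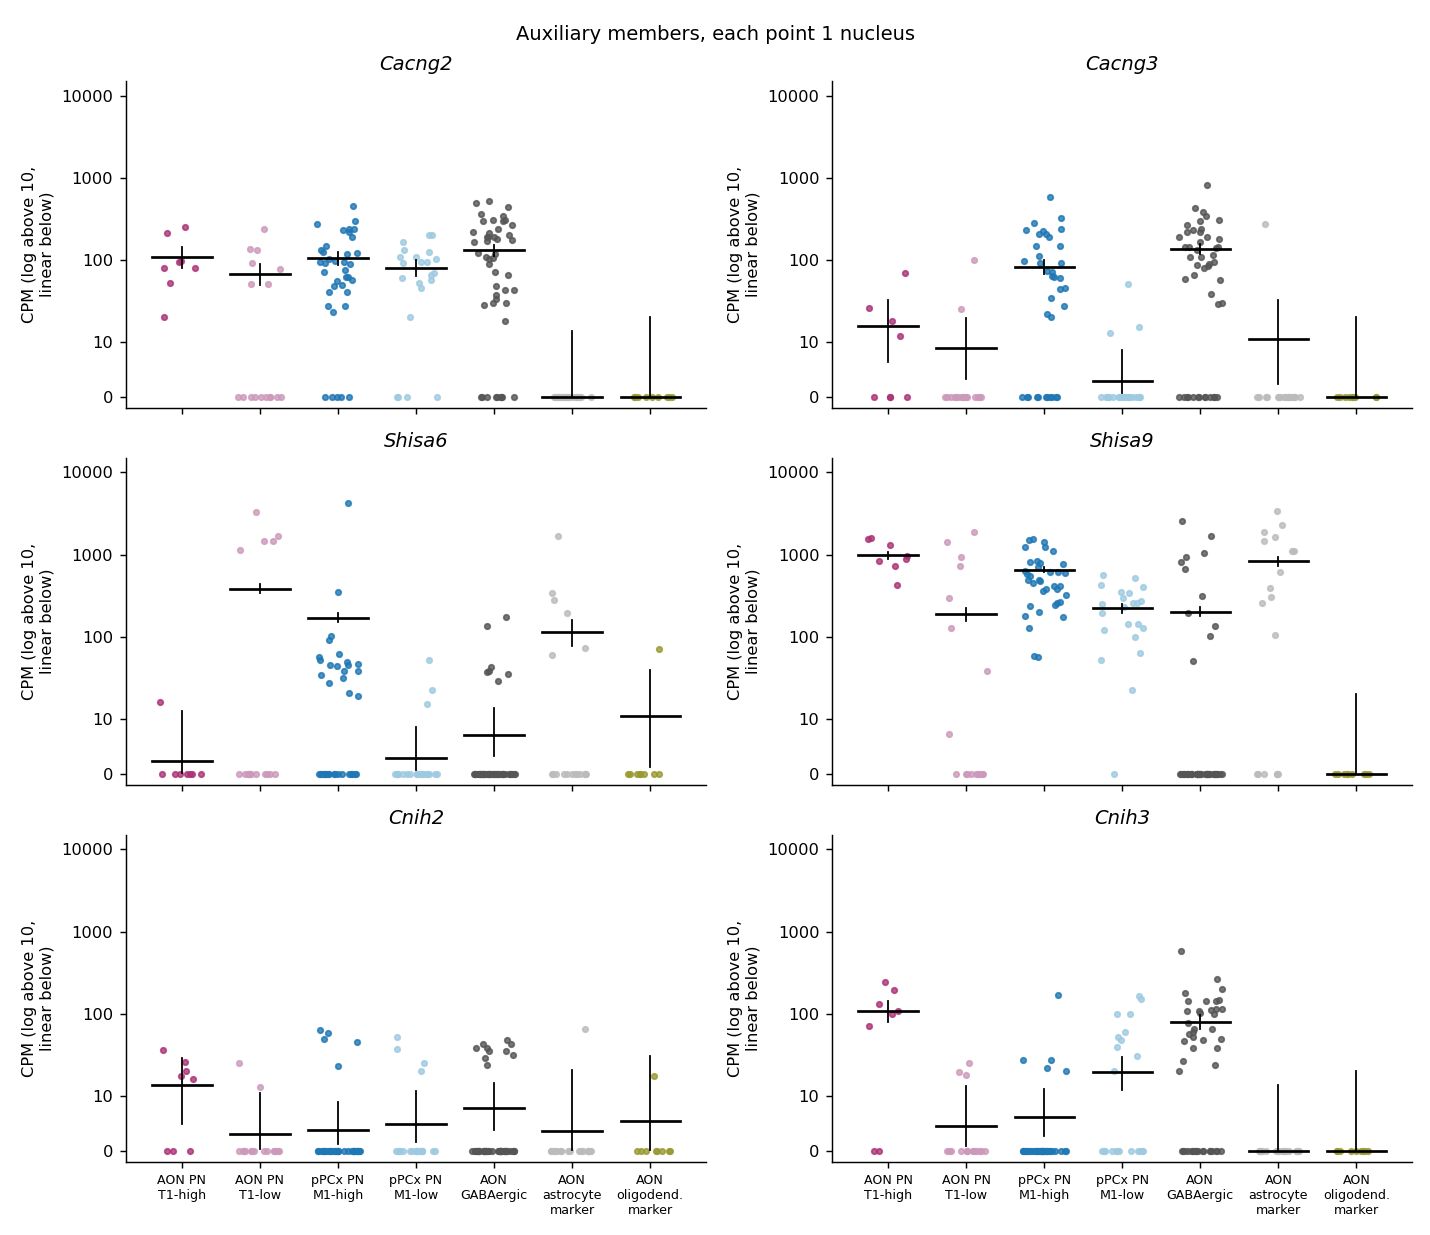
Level of each auxiliary member in single nuclei of 7 groups, in CPM, logarithmic above 10 and linear below, with points, bars and names as in the plot of the pore-forming subunits. Shisa9 was at 432 CPM or more in all 8 T1-list-high AON nuclei, and Cacng3 summed to 81.3 CPM in M1-list-high and 2.93 CPM in M1-list-low pPCx nuclei.

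Other genes of the AMPA receptor pathway were counted from 3 lists: 24 genes of auxiliary and assembly proteins, 20 of scaffold and trafficking proteins and 3 of RNA editing enzymes. For AON over pPCx projection neurons, 1 of 17 measured auxiliary genes was at least 2-fold higher and 2 lower, 1 of 16 scaffold genes was higher and 1 lower, and 1 of 3 editing genes was higher and 1 lower, where 4.98% of all genes were higher and 6.85% lower. *Lrrtm4*, a synaptic adhesion protein found in AMPA receptor complexes, was at 54.6 CPM in the AON class and 938 CPM in the pPCx class. *Camk2a*, the kinase of synaptic plasticity, was at 12.5 and 163 CPM. *Adarb1*, which encodes the enzyme that edits the Q/R site of *Gria2*, was at 332 and 159 CPM (log2 ratio 1.06, 0.85 to 1.27), opposite in direction to *Gria2*. *Adarb2*, a relative with no known editing activity, was at 32.2 and 230 CPM.

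Within the pPCx class, 2 of 13 auxiliary genes were higher in M1-list-high nuclei and 2 lower, 2 of 13 scaffold genes were higher and 1 lower, and 1 of 3 editing genes was higher and 1 lower, where 7.17% of all genes were higher and 4.81% lower. *Lrrtm4* stood at 1636 CPM in M1-list-high and 48.8 CPM in M1-list-low nuclei. The scaffold gene *Grip1*, whose protein binds the tails of GluA2 and GluA3, was at 281 and 62.5 CPM, whereas *Dlg2* (PSD-93) was at 1794 and 5872 CPM and *Adarb2* at 344 and 83.9 CPM.

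In GABAergic nuclei 4 of 15 auxiliary genes were higher than in AON projection neurons and 3 lower, 9 of 16 scaffold genes were higher and 3 lower, and 1 of 3 editing genes was higher, where 15.9% of all genes were higher and 14.4% lower. *Adarb2* was at 3148 against 32.2 CPM, *Lrrtm4* at 2673 against 54.6 CPM, *Prkca*, a kinase that acts on the tail of GluA2, at 1959 against 274 CPM, and *Dlg2* at 9176 against 4047 CPM. The median log2 ratio was 1.15 for the scaffold list, 0.34 for the auxiliary list and 0.26 for the editing list, against 0.07 for all genes. In the remaining nuclei 0 of 10 auxiliary genes were higher and 6 lower, 3 of 11 scaffold genes were higher and 5 lower, and 1 of 3 editing genes was higher and 1 lower, where 21.4% of all genes were higher and 19.6% lower. *Dlg2* (1184 against 4047 CPM), *Epb41l1*, which encodes the cytoskeletal protein 4.1N (75.04 against 651 CPM), and *Nptn*, which encodes the adhesion protein neuroplastin (150 against 352 CPM), were lower there and *Grip1* was higher (463 against 189 CPM).

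In T1-list-high AON nuclei 3 of 10 auxiliary genes were higher and 1 lower, 0 of 9 scaffold genes were higher and 1 lower, and 0 of 2 editing genes were past 2-fold, where 7.36% of all genes were higher and 8.07% lower. The TARP genes *Cacng7* (355 against 163 CPM) and *Cacng5* (199 against 91.1 CPM) were among the higher ones. *Syndig1*, a regulator of synapse development (33.5 against 106 CPM), and *Grip1* (51.4 against 281 CPM) were lower.

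The genes whose levels ran most like each subunit over the 84 projection neuron nuclei were sought among 8305 genes found in at least 30% of them. The correlations are descriptive, since the nuclei come from 2 libraries and share their depth. For *Gria1* these were *Sema6d* (Pearson's r = 0.65), *Gm15398* (0.65) and *Pcdh15* (0.63), at 0.26, 0.34 and 0.29 within the AON nuclei and 0.83, 0.82 and 0.83 within the pPCx nuclei. *Sema6d* is itself on the M2 list. For *Gria2* they were *Tnr* (0.70), *Gabra2* (0.69) and *Ripor2* (0.69), of which *Gabra2* is itself on the M1 list, and they were at 0.53, 0.60 and 0.41 within the AON nuclei and 0.77, 0.78 and 0.72 within the pPCx nuclei. For *Gria4* they were *Abi3bp* (0.66), *Eepd1* (0.62) and *Plxna2* (0.60), at 0.87, 0.63 and 0.77 within the AON nuclei but 0.22, 0.21 and -0.01 within the pPCx nuclei. For *Gria3*, found in 30.95% of the nuclei, they were *Rgs6* (0.74), *Slc4a4* (0.73) and *Prkd1* (0.73). These values were 0.89, 0.84 and 0.90 within the AON nuclei but -0.03, 0.15 and 0.05 within the pPCx nuclei. In the AON nuclei 7 of the 14 *Gria3* UMIs lay in the doubtful nucleus with 1 UMI of the class markers. The values without that nucleus were not computed.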

How the data were processed

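Nuclei of adult mouse olfactory bulb were sorted for a viral nuclear reporter and sequenced as 2 droplet libraries, 1 for each injection site. The authors deposited raw UMI counts per gene and barcode, made with Cell Ranger 3.1.0 per the file headers. The submitters' processing notes name human builds (GRCh38 and hg19) for these mouse libraries, and the mouse build, the annotation and the treatment of introns are not given in the sources used here. Gene positions, exonic lengths and sequences came from GENCODE M21 (GRCm38), which held 30934 of the 31053 gene identifiers.

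Barcodes needed 1000 genes or more and no more than 5% of UMIs from mitochondrial genes (kept were 102 of 188 barcodes in the AON library and 63 of 74 in the pPCx library). Kept nuclei were classed by the summed UMIs of 7 marker genes, and remaining nuclei were called astrocyte-marker or oligodendrocyte-marker from at least 3 UMIs of the list. Class totals ranged from 479744 UMIs (AON remaining) to 2328340 UMIs (pPCx projection neurons), and single AON projection neurons held 3291 to 274993 UMIs. No doublet caller was run on so few nuclei. UMIs were summed by class and given per 1000000 UMIs. Log2 ratios used 0.5 UMI added to each sum and exact conditional binomial intervals, levels had exact Poisson intervals and shares had Clopper-Pearson intervals, all at 95%. A gene with at least 50 UMIs over both sums was called past 2-fold in these sums. With 1 library per group no test was made. The ratios and intervals were tested on simulated class sums with counting error only. No spread between nuclei was simulated, so the test says nothing about uneven nuclei.

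The members, the pathway lists, the marker lists and the limits were chosen with earlier results of these data known. The M1 and T1 lists were drawn by the study from other libraries and hold no member, and its M2 list was added after seeing the data. Named genes were the 10 members, at most 4 genes past 2-fold from the pathway lists per comparison, those with the most UMIs, and the 3 genes with the highest correlation to each pore subunit, on log2 of counts per 10000 plus 1. Alternatives changed the gene filter, the class rule, the weight of nuclei, very deep nuclei, the depth, the UMIs added and the UMI minimum. Python 3.11.15 was used with numpy 2.4.6, scipy 1.17.1, pandas 2.3.3 and matplotlib 3.10.9.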

Additional observations from a re-analysis of the deposited data

Results flagged for a closer look

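AMPA receptor RNA was also counted in barcodes below the limit of 1000 genes, which no comparison used. In the AON library, 86 such barcodes with a median of 775 UMIs held 209 UMIs of *Gria1* to *Gria4*, in 38 of them, or 2208 CPM (1919 to 2528) against 4443 CPM in the kept nuclei. A count of 0 would have allowed 3 UMIs. Of these, 111 were of *Gria4*, 76 of *Gria2*, 21 of *Gria1* and 1 of *Gria3*, and 70.3% of the *Gria4* UMIs came from 1 barcode. The 6 auxiliary members had 78 UMIs in 18 of these barcodes, or 824 CPM against 691 CPM in the kept nuclei. In the pPCx library, 11 such barcodes held 10 UMIs of *Gria1* to *Gria4* in 6 of them, or 936 CPM against 2146 CPM. Whether these barcodes are shallow nuclei or droplets with free RNA was not tested.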

How the results depend on the processing

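With 1 library per group no result has a replicate error, and 8 of the 25 AON projection neurons were classed by 1 or 2 UMIs. No paired analysis was possible because each injection site has 1 library. Of the members' log2 ratios under all alternatives, 473 stayed within the counting interval, 76 left it and 1 called ratio reversed. That was *Cnih3* between AON and pPCx projection neurons, at -0.14 when nuclei were thinned to 3000 UMIs. Some of the 473 could not move, because the UMI minimum decides only which ratios are called. Leaving out 1 nucleus likewise cannot alter a comparison that does not hold it, so the 473 overstates stability. Thinning lowers the summed UMIs, so fewer members reached the minimum of 50: past 2-fold were then 2 of 3 members for AON over pPCx projection neurons (23.1% of all genes), 3 of 4 for remaining nuclei (58.2%), 2 of 2 for the M1 list (19%) and 1 of 2 for the T1 list (33%). The other 51 counts of members stayed within 1.5 times, among them counts of comparisons that did not hold the nucleus left out.

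The *Gria4* share of AON projection neurons (59.5%) was 61.3% under a stricter class rule, 67.5% without nuclei over 3 times the median depth and 69.9% per exonic length. In pPCx projection neurons (7.98%) it was 9.20% with nuclei weighted equally, 9.26% after thinning and 14.8% per exonic length, and in GABAergic nuclei (27.0%) 28.9%, 30.6% and 36.1%. Alternatives chosen after seeing the data gave the AON share as 61.2% without nuclei whose glial markers exceeded their class markers and 56.1% without the T1-list-low nucleus with the most *Gria4*. *Gria4* kept the largest share in AON projection neurons under each of these. The log2 ratio of *Gria1* between the T1 groups (-0.96) was 0.17 with nuclei weighted equally and 0.94 after thinning. The causes of these shifts were not tested.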
